A study of Mus musculus with 8 samples.

Results

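The chemokines CXCL1 (KC), CXCL2 (MIP-2) and CXCL5 (deposited under its older name LIX) and the cytokine IL-17A were followed through an antibody array of mouse tumour lysates. They are 4 of the 111 analytes of the array, and were matched by Entrez gene identifier: 14825 for Cxcl1, 20310 for Cxcl2, 20311 for Cxcl5 and 16171 for Il17a. The tumours were grown from TC-1, a mouse epithelial line expressing HPV16 E6 and E7 and here called radiation-sensitive, or from TC-1/IR, its radiation-resistant counterpart. All hosts were female C57BL mice aged 10 weeks. The inoculum, placed under the skin of the right thigh, was 100000 cells for TC-1 and 300000 for TC-1/IR, so it differed between the lines. Treatment began at about 100 mm3, between 8 and 10 days later. Hosts of each line received buffer, radiotherapy (RT), rhIL-7-hyFc (IL-7) or the combination. RT was gamma radiation to the whole body at 2 Gy a day on 4 consecutive days. rhIL-7-hyFc is recombinant human interleukin-7 fused to a hybrid Fc that prolongs its action, and 50 µg went under the skin on days 0 and 7. Because the radiation reached the whole body, blood and marrow of the host were exposed along with the tumour.

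Each of the 8 groups (2 lines by 4 treatments) was read on 1 membrane, with no replicate. The titles call the lysates pooled, the design text names individual mice, and how many animals a membrane stands for is unclear. The 2 spots of an analyte on a membrane give technical error only. In lysate of whole tumour, fewer cells of a type and less protein per cell cannot be told apart. The array held no marker of the TC-1 cells themselves, so the labelled tumour lines could not be checked.

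CXCL1, CXCL2 and CXCL5 belong to the chemokines that carry a glutamate-leucine-arginine motif and bind the receptor CXCR2, through which neutrophils leave the marrow, enter tissue and migrate within it. IL-17A is a cytokine of Th17 and γδ T cells. It acts on epithelium and stroma, where it induces CXCR2 ligands and the neutrophil growth factor G-CSF, and it stabilises their transcripts. In tumours, neutrophils drawn by CXCR2 ligands are often counted among the suppressive myeloid cells.

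The genes of the 3 chemokines lie on mouse chromosome 5 and Il17a lies on chromosome 1. Cxcl1 and Cxcl2 are neighbours with 0 protein-coding genes between them, and 4 protein-coding genes (Ppbp, Pf4, Cxcl3 and Cxcl15, all chemokine genes) lie between Cxcl5 and Cxcl1. Upstream sequence is shown for Cxcl1 and Cxcl2, which both peaked on the TC-1/IR membrane after RT. It is the 250 bases before the RefSeq start, both on the plus strand of GRCm38.p6, at chr5:90890995-90891244 for Cxcl1 and chr5:90903649-90903898 for Cxcl2. Capitals mark the longest run of bases common to both windows.
Cxcl1: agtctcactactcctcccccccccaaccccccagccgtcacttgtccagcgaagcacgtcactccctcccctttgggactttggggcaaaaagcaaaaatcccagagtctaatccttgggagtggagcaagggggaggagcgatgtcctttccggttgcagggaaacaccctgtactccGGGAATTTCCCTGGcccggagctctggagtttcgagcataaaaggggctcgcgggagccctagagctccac
Cxcl2: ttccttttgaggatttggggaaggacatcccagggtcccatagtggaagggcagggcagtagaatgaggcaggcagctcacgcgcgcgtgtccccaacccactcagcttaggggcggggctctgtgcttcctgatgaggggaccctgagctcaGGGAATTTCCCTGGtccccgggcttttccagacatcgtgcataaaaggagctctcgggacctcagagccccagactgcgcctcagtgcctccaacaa
The common run, GGGAATTTCCCTGG, is 14 bases long and begins 71 bases before the start of Cxcl1 and 97 bases before that of Cxcl2. Its first 10 bases, GGGAATTTCC, spell a form of the κB element bound by NF-κB, the factor through which TNF-α and IL-1 induce these genes. Searched on both strands, the 14 bases were present in 2 of 27025 promoter windows of this length (0.0074%) and the 10 bases in 23 (0.0851%). The 2 windows are those of Cxcl1 and Cxcl2, from which the run was taken, and the 23 include them. The counts are therefore no separate evidence for a shared element. Promoter sequences were matched for 3 of the 4 members, and Il17a was the 1 of these without the 10 bases. The search describes the sequence, and promoter activity was not measured.

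Spot intensities are in arbitrary units as deposited and are compared here between membranes for 1 analyte, since each analyte has its own antibody. Sums over the analytes of a list are weighted towards the brightest antibodies and compare membranes only. A floor of 2.49, equal to 1% of the strongest analyte, was used as the lowest level at which a fold was computed. CXCL2 and CXCL5 were above it on 5 membranes each, CXCL1 on 1 and IL-17A on 0. Below the floor and above 0.1, the duplicate spots of all analytes had a median coefficient of variation of 19.9%, against 5.02% to 11.1% per membrane above the floor. The membranes differed in strength as wholes: the analyte intensities summed to between 1173 and 1449 on the TC-1 membranes and between 739 and 1495 on the TC-1/IR membranes. The sum was 765 for TC-1/IR with buffer and 1473 after RT. Results that lean on such shifts are given also after median centring, a scaling of every membrane to the same median over the 28 analytes above the floor on all 8.

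CXCL2, a chemokine released early by macrophages and epithelium, gave the clearest pattern of the 4. On the TC-1 membranes its 2 spots averaged 3.92 with buffer, 4.30 with RT, 6.715 with IL-7 and 4.825 with the combination. On the TC-1/IR membranes the averages were 0.695, 7.91, 1.56 and 0.94 in the same order. The irradiated TC-1/IR tumour was thus the highest of all 8, and the other 3 TC-1/IR membranes were the lowest and lay below the floor. The spots of that highest membrane, 8.88 and 6.94, lay just above those of the next, TC-1 with IL-7, at 6.50 and 6.93. In the order of the 8 levels, the spots of TC-1 after both treatments, after RT and with buffer overlapped from each to the next, and so did those of TC-1/IR after both and with buffer.

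CXCL1, the mouse counterpart of the human GRO chemokines, followed the same outline at levels near or below the floor. It stood at 1.975, 1.49, 1.44 and 1.495 in TC-1 with buffer, RT, IL-7 and both. The TC-1/IR readings were 0.105, 2.885, 0.38 and 0.48 in that order. Only the irradiated TC-1/IR membrane exceeded the floor, with spots of 2.97 and 2.80 that did not overlap those of any other membrane. The 3 remaining TC-1/IR membranes lay below all 4 of TC-1, those of IL-7 and of the combination with overlapping spots. Among the TC-1 membranes the spots after RT, IL-7 and both overlapped from each to the next in order of level. Scaling the membranes left the order of all 8 as it was.

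CXCL5, a chemokine of epithelium and platelets, did not share that outline. It read 2.225 with buffer, 4.105 with RT, 6.53 with IL-7 and 3.34 with the combination in TC-1. In TC-1/IR the readings were 2.87, 3.445, 1.145 and 0.865 in the same order. TC-1 with IL-7 was highest, with spots of 6.59 and 6.47, and both TC-1/IR membranes that had received IL-7 were lowest. The buffer membranes of both lines were measured poorly, with spots of 3.09 and 1.36 for TC-1 and of 1.58 and 4.16 for TC-1/IR. From the second to the sixth highest level, each membrane's spots overlapped those of the next.

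IL-17A was at the limit of the array. Its TC-1 readings were 0.22, 0.435, 1.325 and 0.64 for buffer, RT, IL-7 and the combination. In TC-1/IR the spots with buffer, after RT and after IL-7 held only placeholders of 0.001 or 0.0011 for no signal, and the reading after both was 0.21. The highest value was again TC-1 with IL-7, whose spots of 1.5 and 1.15 did not overlap those of any other membrane. No fold is given for IL-17A, since every reading was below the floor.

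**Figure D1:**
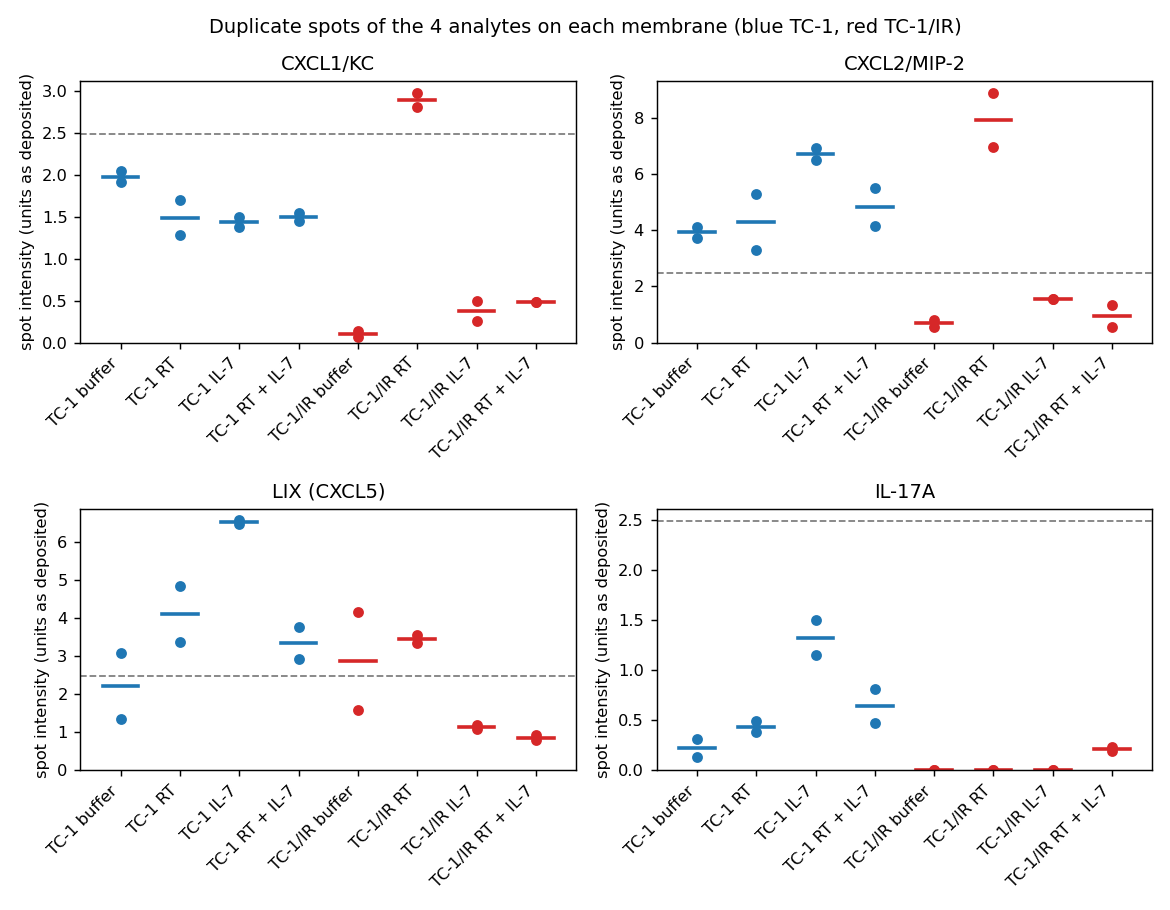
Intensity of the 2 spots of each analyte (points) and their mean (bars) on the 8 membranes, with blue for TC-1 and red for TC-1/IR. The dashed line is the floor of 2.49, and each panel has its own intensity axis starting at 0. CXCL1 and CXCL2 peak on the irradiated TC-1/IR membrane at 2.885 and 7.91, whereas CXCL5 and IL-17A peak on the TC-1 membrane with IL-7 at 6.53 and 1.325.

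The first comparison asked how the members differ between the resistant and the sensitive line. CXCL1, CXCL2 and CXCL5 were each lower in TC-1/IR in 3 of 4 treatments, and IL-17A in 4 of 4, as were 59.5% of the 111 analytes. For CXCL1 and CXCL2 the exception was RT, and for CXCL5 it was buffer, with overlapping spots. The mean level of CXCL2 was 4.94 ± 1.24 over the TC-1 membranes and 2.78 ± 3.44 over those of TC-1/IR (SD, n = 4, each of another treatment), a limma difference of -0.54 on the log2 scale (SE 0.42, adjusted p = 0.335). The mean level of CXCL5 was 4.05 ± 1.82 over TC-1 and 2.08 ± 1.27 over TC-1/IR (SD, n = 4), a limma difference of -0.47 (SE 0.33, limma adjusted p = 0.301). Neither of the 2 members tested was called, where 41.3% of the 75 analytes tested were (40% lower, 30 in number, and 1.33% higher), and the median over the 75 was -0.58. After centring 22 of 72 analytes were called lower and 5 higher, with a median of -0.32, and CXCL2 at -0.41 (SE 0.31, limma adjusted p = 0.309) and CXCL5 at -0.29 (limma adjusted p = 0.392) were again not called. The adjusted p is from limma with Benjamini-Hochberg adjustment over all analytes tested, and values below the floor were set to it.

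Whether CXCL2 was called depended on the irradiated TC-1/IR membrane. Without it, CXCL2 was lower in TC-1/IR by a limma difference of -1.04 (SE 0.26, adjusted p = 0.0127), and 38 of 75 analytes were called. In that fit the remaining 3 TC-1/IR values of CXCL2 were all set to the floor, and values at the floor have no spread. All 4 TC-1 values were above the floor, so the difference could only come out negative. The call is therefore no support for a difference between the lines. For IL-17A all 4 TC-1/IR readings were below all 4 TC-1 readings, if only just (0.21 against 0.22, with overlapping spots), which held for 45% of the 111 analytes. After centring the separation was lost, with the TC-1/IR combination above TC-1 after RT and with buffer. On a scale of log2(intensity + 1) without a floor, chosen after the data were seen, the line difference was -0.61 for IL-17A (SE 0.28, limma adjusted p = 0.0937) and -0.59 for CXCL1 (SE 0.36, limma adjusted p = 0.190). The direction for CXCL1 depended on the floor: the limma difference was -0.047 with a floor of 0.5%, 0.41 with a floor per membrane and 0.053 with no filter, and none was called. On that scale 53 of 111 analytes were called.

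**Figure D2:**
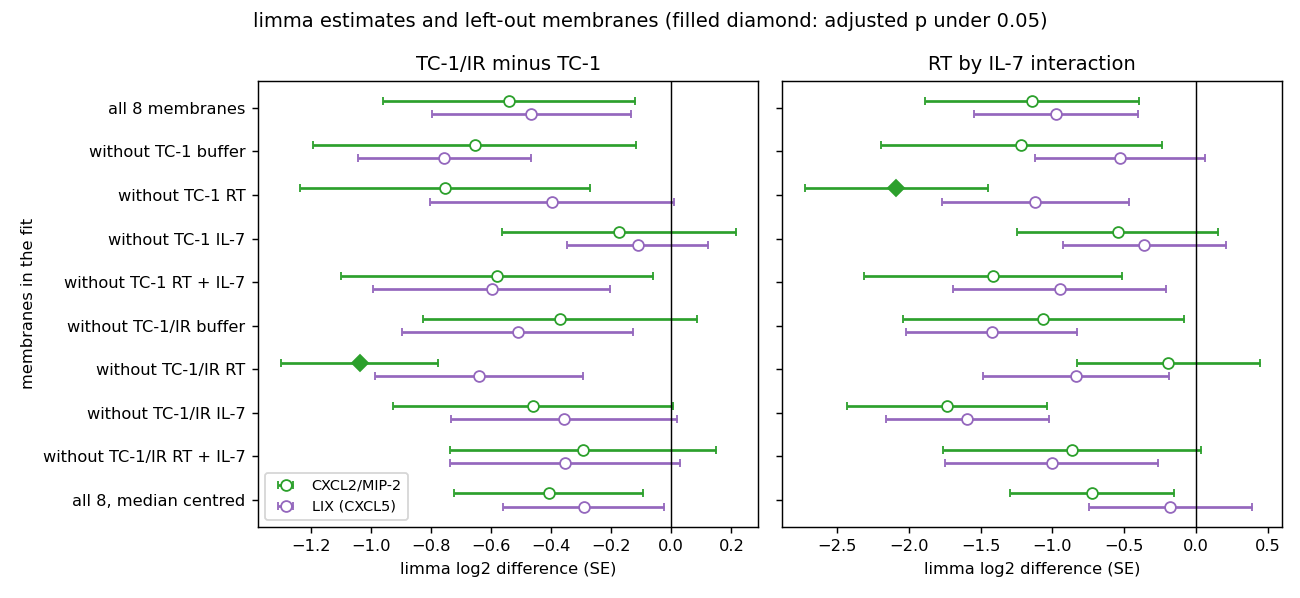
Differences on the log2 scale from limma (points) with their SE (bars) for CXCL2 in green and CXCL5 in purple, with all 8 membranes, with each left out in turn, and after median centring. The left panel shows TC-1/IR minus TC-1 and the right panel the interaction of RT with IL-7, and filled diamonds mark an adjusted p under 0.05. CXCL2 moves from -0.54 to -1.04 in the left panel when the irradiated TC-1/IR membrane is left out. Its other TC-1/IR values were all at the floor, so the sign of that estimate was fixed in advance.

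Treatment by treatment, the lines differed for CXCL2 in opposite directions. These comparisons set 1 membrane against 1 and have no test. A difference was counted when it reached 1.5-fold with spots that did not overlap and at least 1 of the 2 values above the floor, and a fold against a value below the floor is a bound. With buffer CXCL2 was at least 1.57-fold lower in TC-1/IR, as 1 of 2 measured members, while 51.4% of all measured analytes were lower and 4.17% higher. The median shift of that membrane against its TC-1 counterpart was -0.77 on the log2 scale, and after centring CXCL2 was not counted. After RT, CXCL2 was 1.84-fold higher in TC-1/IR (log2 0.88, SE of the spots 0.39), as 1 of 3 measured members, where 13.3% of all were higher and 36.7% lower, and it was 1.68-fold higher after centring. After IL-7, CXCL2 was at least 2.70-fold and CXCL5 at least 2.62-fold lower, as 2 of 2, with 57% of all lower and 6.45% higher. After both treatments, CXCL2 was at least 1.94-fold lower, as 1 of 2, with 56.4% of all lower and 2.56% higher.

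The next comparison concerned irradiation. In TC-1/IR, CXCL2 read 7.91 against 0.695 with buffer, at least 3.18-fold higher (log2 1.67, SE of the spots 0.18), and it was the 1 of 3 measured members counted higher, where 46.3% of all were higher and 2.99% lower. The membrane as a whole was stronger by 0.84 on the log2 scale, and after centring CXCL2 was still at least 2.45-fold higher. CXCL1 went from 0.105 to 2.885, which against the floor is at least 1.16-fold higher. With a floor of 0.5%, or 1.24, it was at least 2.32-fold higher, and CXCL1 was counted higher. CXCL5 read 3.445 against 2.87 with buffer, a difference within the spread of the buffer spots. In TC-1, RT left CXCL2 at 4.30 against 3.92, a log2 ratio of 0.13 (SE of the spots 0.35). CXCL5 was at least 1.65-fold higher there, at 4.105 against a buffer value of 2.225, as 1 of 2 measured members with 19.8% of all higher and 3.49% lower. It was not counted after centring.

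Over the 4 pairs of membranes with and without RT, CXCL2 was higher in 2 and lower in 2, by a mean of 0.33 (SE 0.42, limma adjusted p = 0.969). CXCL5 was likewise higher in 2 and lower in 2, by 0.0044 (SE 0.33, limma adjusted p = 0.990). CXCL1 was higher in 3 and IL-17A in 2. Among all analytes limma called 1.33%. Tested directly, the response of CXCL2 to RT was not shown to differ by line, with an interaction of 1.01 (SE 0.75, limma adjusted p = 0.999). With a membrane left out it ran from 0.17 (without TC-1/IR with buffer or after RT) to 1.84 (without TC-1/IR after IL-7 or after both). For CXCL5 it was 0.25 (SE 0.74, limma adjusted p = 0.999). Among all 75 analytes 0% were called by limma for this interaction, and 0 had an unadjusted p under 0.05.

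rhIL-7-hyFc, the third factor, acts on T cells, which bear the IL-7 receptor. In TC-1 the IL-7 membrane gave the highest reading of CXCL5 and IL-17A and the second highest of CXCL2. CXCL2 was 1.71-fold higher than with buffer (log2 0.78, SE of the spots 0.084), and CXCL5 at least 2.62-fold higher (log2 1.39, SE of the spots 0.16). Both measured members were thus counted higher, where 31.9% of all were higher and 1.1% lower, and both still were after centring (1.56-fold, and at least 1.94-fold). IL-17A read 1.325 against 0.22 with buffer, both below the floor. CXCL1 read 1.44 against 1.975. In TC-1/IR no member was counted after IL-7 alone (49.1% of all higher, 5.66% lower). CXCL2 was 1.56 against 0.695 there, and CXCL5 was 1.145 against 2.87, where the spots of the buffer membrane straddled the floor.

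Over the 4 pairs with and without IL-7, CXCL2 was higher in 3 and CXCL5 in 1. The mean differences were -0.18 for CXCL2 (SE 0.42) and 0.11 for CXCL5 (SE 0.33), each with a limma adjusted p of 0.974. For IL-7 limma called 0% of the 75 analytes, with 0 at an unadjusted p under 0.05. The interaction of line with IL-7 was -1.31 for CXCL2 (SE 0.75) and -0.88 for CXCL5 (SE 0.74), each with a limma adjusted p of 0.982. With a membrane left out, leaving 1 residual degree of freedom, it ran from -2.14 to -0.47 for CXCL2 (the latter without TC-1/IR after RT or after both) and from -1.73 to -0.039 for CXCL5 (the latter without TC-1 with buffer or after IL-7). For this interaction too, 0% of analytes were called, and 1 of 75 had an unadjusted p under 0.05.

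With both treatments, CXCL2 was back below the floor in TC-1/IR and stayed above it in TC-1. In TC-1/IR, adding IL-7 to RT took CXCL2 from 7.91 to 0.94, at least 3.18-fold lower (at least 2.45-fold after centring), as 1 of 3 measured members with 47% of all lower and 4.55% higher. The membrane as a whole shifted by -1.21 on the log2 scale. For CXCL2 this bound and that of RT against buffer set the same reading of 7.91 against the floor, so they are equal by construction. CXCL1 went from 2.885 to 0.48 and CXCL5 from 3.445 to 0.865, at least 1.16-fold and at least 1.38-fold lower and neither counted. In TC-1, adding RT to IL-7 took CXCL5 from 6.53 to 3.34, 1.96-fold lower (log2 -0.97, SE of the spots 0.18), as 1 of 2 with 22% of all lower and 2.2% higher. It was not counted after centring. In the same comparison CXCL2 read 4.825 against 6.715, which was not counted and turned to a log2 ratio of 0.035 after centring. IL-17A read 0.64 against 1.325, both below the floor. Against RT alone, the TC-1 combination had 0 of 2 members past the rule of size (4.49% of all higher, 10.1% lower). Against buffer it had 0 of 2 in TC-1 (16.9% higher, 13.3% lower) and 0 of 1 in TC-1/IR (15.9% higher, 18.2% lower). Against IL-7 alone no member was measured in TC-1/IR (7.41% higher, 57.4% lower).

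The effect of the combination minus the sum of the single effects on the log2 scale could not be measured for CXCL2 in TC-1/IR, where 3 of the 4 values were at the floor. In TC-1 it was -0.61 for CXCL2 and -1.69 for CXCL5, against a median of -0.57 over the 75 analytes. After centring these values were -0.15 and -0.93 against a median of -0.094. For CXCL5 in TC-1/IR, with 2 values at the floor, it was -0.26 and turned to 0.58 after centring. Fitted over both lines, RT and IL-7 interacted by -1.14 for CXCL2 (SE 0.74, limma adjusted p = 0.362) and by -0.98 for CXCL5 (SE 0.57, limma adjusted p = 0.313). After centring the interactions were -0.72 for CXCL2 (limma adjusted p = 0.923) and -0.18 for CXCL5 (limma adjusted p = 0.983). By limma 0% of analytes were called, though 14 of 75 had an unadjusted p under 0.05, all of them negative. Without the TC-1 RT membrane the interaction of CXCL2 was -2.09 (SE 0.64), and without the TC-1/IR RT membrane it was -0.19 (SE 0.64). Each of these fits held only 1 membrane given RT alone. In both, the TC-1/IR values of CXCL2 with buffer, after IL-7 and after both were set to the floor and had no spread. Neither fit can therefore decide the interaction.

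**Figure D3:**
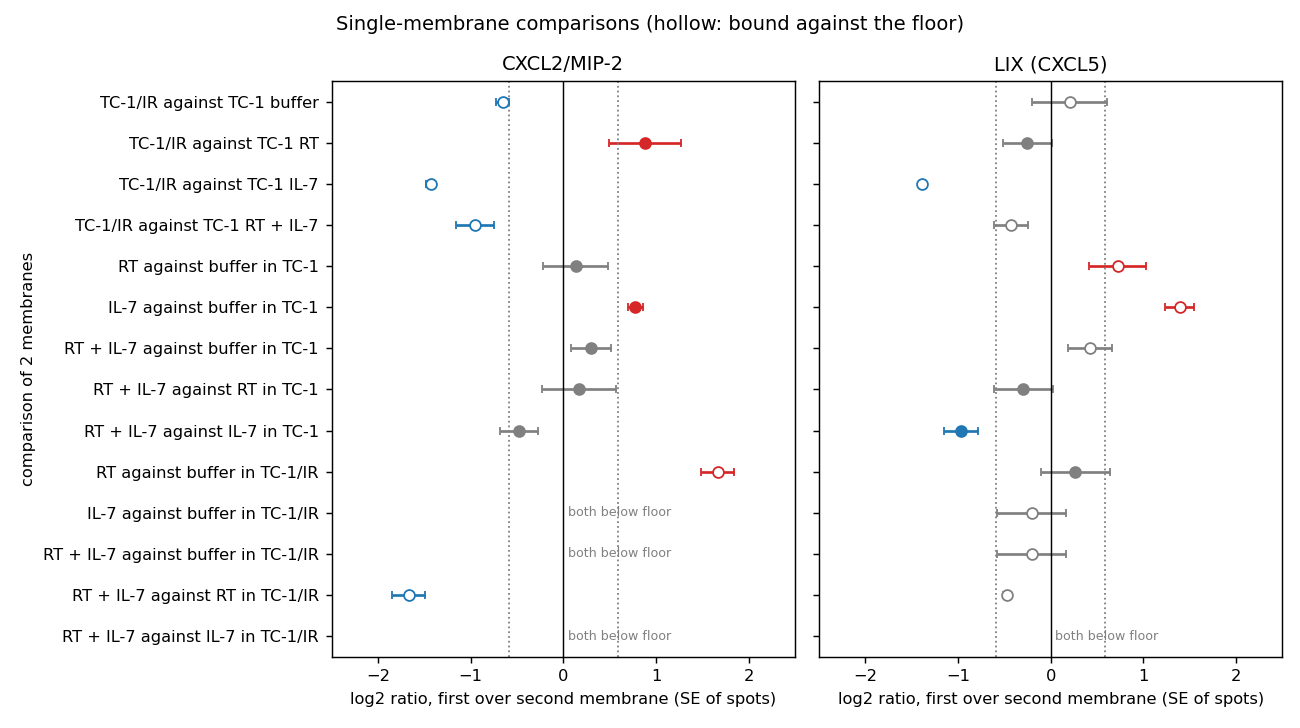
Log2 ratios of CXCL2 and CXCL5 in the 14 comparisons of single membranes (points) with the SE of the duplicate spots (bars). Red and blue mark differences counted as higher and lower, grey those not counted, hollow points are bounds against the floor, and dotted lines mark 1.5-fold. CXCL2 in TC-1/IR is at 1.67 for RT against buffer and at -1.67 for the addition of IL-7 to RT. The 2 are equal in size by construction, since both set the same reading after RT against the floor.

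The 3 analytes closest to a member in pattern were taken by Pearson correlation of log2 values over the 8 membranes, as a description. The points share membranes that differ in strength as wholes. For CXCL2 they were CD40, a receptor of the TNF family on antigen-presenting cells (r = 0.97), pentraxin 3 (r = 0.86) and CXCL11 (r = 0.84). CD40 read 5.705, 6.84, 8.875 and 6.895 in TC-1 and 0.68, 9.61, 1.56 and 0.86 in TC-1/IR, with treatments in the order buffer, RT, IL-7, both. Its 8 values fell in the same order as those of CXCL2 (Spearman's rho of 1), but its duplicate spots do not resolve that order. They were 3.3 and 8.11 for TC-1 with buffer and overlapped those after RT, 4.62 and 9.06. Those of TC-1/IR after RT, 11.14 and 8.08, overlapped those of TC-1 with IL-7, 8.56 and 9.19. CD40 was the closest of 74 analytes also after centring (r = 0.95), whereas CXCL11 dropped to place 17. For CXCL5 they were angiopoietin-2 (r = 0.96), a ligand of the endothelial receptor Tie2, amphiregulin (r = 0.91) and CCL12 (r = 0.90). After centring angiopoietin-2 came second (r = 0.75), and amphiregulin and CCL12 fell to places 26 and 35. By deposited position, the spots of CD40 (B21 and B22) lie beside those of CXCL2 (C21 and C22). Those of CXCL1 (C19 and C20) lie next to CXCL2 as well. Centring scales a membrane as a whole and leaves local differences in place. The part of position on the membrane in these readings was not tested.

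Within the family, on the scale of log2(intensity + 1), CXCL1 and CXCL2 correlated at r = 0.93 over the 8 membranes (Spearman's rho 0.76). Without the TC-1/IR RT membrane r was 0.91. The spots of these chemokines lie side by side on the membrane, as said above. CXCL5 correlated with CXCL2 at r = 0.71 and with CXCL1 at r = 0.51. IL-17A correlated with CXCL2 at r = 0.51, and at r = 0.84 without the TC-1/IR RT membrane, where CXCL2 was highest and both spots of IL-17A held placeholders. The rise was not particular to IL-17A. Without that membrane the correlation with CXCL2 rose from 0.68 to 0.90 for G-CSF. For lipocalin-2 it rose from 0.10 to 0.34, and for myeloperoxidase from -0.012 to 0.12.

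The granule proteins myeloperoxidase and lipocalin-2 peaked on another membrane than any of the 4 members. Myeloperoxidase (Mpo), the enzyme of neutrophil granules, read 102 in TC-1/IR given IL-7 alone against 10.2 with buffer, 9.99-fold higher, where CXCL2 was 1.56 and CXCL1 0.38. Where CXCL2 and CXCL1 were highest, in TC-1/IR after RT, myeloperoxidase was 7.955. The TC-1 membranes read 25.3 (buffer), 9.105 (RT), 24.6 (IL-7) and 8.88 (combination). Lipocalin-2, another granule protein, was above the floor on 1 membrane, again TC-1/IR given IL-7 alone, at 6.59. MMP-9 was below it on all 8. Pentraxin 3, of the same list, went the other way in TC-1/IR, at 3.635 with buffer, 7.585 after RT and 3.11 after IL-7. It was the second closest analyte to CXCL2 (r = 0.86 on the log2 scale with the floor). Its highest reading, 11.04, was on the TC-1 membrane with IL-7, where CXCL5 and IL-17A also peaked. Across the 8 membranes the correlation of myeloperoxidase with CXCL2 was -0.012 and with CXCL1 -0.15, again as a description. The 4 neutrophil granule products (with pentraxin 3) summed to between 17.6 and 38.0 on TC-1 membranes and between 6.36 and 112 on TC-1/IR membranes. The part of neutrophil number in the chemokine readings was not tested.

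G-CSF (Csf3), which drives neutrophil production, was 3.46, 4.89, 4.695 and 4.505 in TC-1 and 1.755, 2.14, 1.17 and 1.695 in TC-1/IR. It was lower in TC-1/IR by -0.80 (SE 0.20, limma adjusted p = 0.0205), and all its TC-1/IR readings were below the floor. After centring the difference was -0.51 (SE 0.20, limma adjusted p = 0.0719). The irradiated TC-1/IR membrane, the highest in CXCL1 and CXCL2, was below every TC-1 value of G-CSF. GM-CSF was below the floor on all membranes, and complement C5/C5a was above it on 2.

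**Figure D4:**
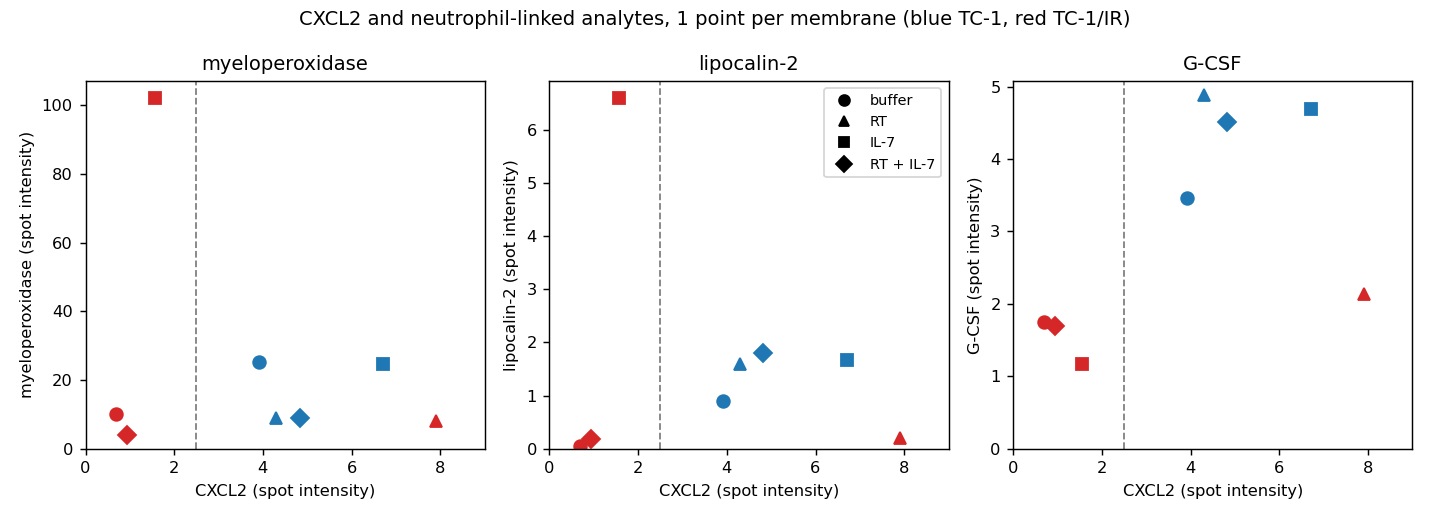
Mean spot intensity of CXCL2 (horizontal axis) against myeloperoxidase, lipocalin-2 and G-CSF (vertical axes, each starting at 0), with 1 point per membrane, blue for TC-1 and red for TC-1/IR. Shapes give the treatment and the dashed line the floor for CXCL2. The TC-1/IR IL-7 membrane is highest in myeloperoxidase at 102 with CXCL2 at 1.56, and the TC-1/IR RT membrane is highest in CXCL2 at 7.91 with myeloperoxidase at 7.955.

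The wider IL-17 axis was mostly too weak to test. Of 5 cytokines that drive or accompany IL-17A, 2 were tested, and TNF-α was lower in TC-1/IR (-0.87, SE 0.28, limma adjusted p = 0.0384) while IL-1β was not called (-0.54, SE 0.20, limma adjusted p = 0.0641). IL-23 and IL-22 exceeded the floor on 1 membrane each, TC-1 with IL-7, at 3.20 and 2.955, which was also the membrane highest in IL-17A. IL-6 was below it on all 8. Of 6 products known to be induced by IL-17A or IL-22, the 2 tested were both lower in TC-1/IR: G-CSF, as above, and the antimicrobial lectin Reg3G (-0.89, SE 0.24, limma adjusted p = 0.0205). TNF-α (-0.74, limma adjusted p = 0.0386) and Reg3G (-0.67, limma adjusted p = 0.0279) were called after centring too. These counts, 1 of 2 and 2 of 2, stand beside the 40% of all 75 analytes that were lower for line. G-CSF and IL-1β passed the filter through their TC-1 readings alone, so neither could have come out higher in TC-1/IR. Reg3G exceeded the floor in TC-1/IR only after RT, at 2.5 against a floor of 2.49. It too had almost no room to come out higher. CCL20 and lipocalin-2 were above the floor on 1 membrane each, and IL-6 and MMP-3 on 0. For RT and for IL-7, limma called 0 members of these lists.

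Marker lists of other cells and of blood were read on the same membranes. For line, limma called 1 of 2 tested neutrophil granule products lower (pentraxin 3), 1 of 3 monocyte factors lower (M-CSF), 2 of 5 T and NK cell chemokines lower (CXCL9 and CX3CL1), 0 of 1 endothelial adhesion molecule and 0 of 2 platelet products, where 40% of all 75 analytes were lower. Of 4 plasma proteins 1 was higher (pentraxin 2). After centring M-CSF and CXCL9 were not called (limma adjusted p of 0.187 and 0.0892), and complement factor D was higher (0.77, SE 0.26, limma adjusted p = 0.0386). The median difference of these lists ran from -0.71 for T and NK cell chemokines to 0.035 for plasma proteins, beside -0.58 for all 75 analytes. The RT membrane of TC-1/IR, which held the most CXCL1 and CXCL2, also read higher than its buffer membrane in the summed monocyte factors (185 against 60.2, of which CD14 gave 166 and 51.8) and plasma proteins (393 against 237). The TC-1/IR IL-7 membrane, low in CXCL1 and CXCL2, had sums of 188 and 461. The RT membrane was stronger than the buffer membrane as a whole (total intensity of 1473 against 765), and these sums were not scaled for it. Their part in the chemokine readings was not tested.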

How the data were processed

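Tumour lysates were bound to membranes of a Proteome Profiler mouse cytokine array with biotinylated detection antibodies, per the labels' protocols. The deposited spot intensity values, on a linear scale, were used as the authors gave them: 111 analytes in 2 spots on each of 8 membranes. Image software, background removal and any scaling were not stated in the labels. The combined table held the same values, with 0 differing. All 111 Entrez identifiers were found in the RefSeq gene table of GRCm38.p6.

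Spots were averaged, values under a floor of 2.49 were set to it, and log2 was taken. limma 3.58.1 in R 4.3.3 was fitted to 75 analytes, those that exceeded the floor on 4 or more membranes. Additive terms for line, RT and IL-7 left 4 residual degrees of freedom, line interactions 2, and RT by IL-7 3. The interactions left out served as the error, and p-values measure that spread between membranes. A call needed a Benjamini-Hochberg adjusted p under 0.05. For single membranes, 1.5-fold with separate spots was counted.

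Alternatives were median centring before the floor, floors of 0.5%, 2% and per membrane, 2-fold, single spots, no filter, an intensity trend, a treatment block, each membrane left out, and log2(intensity + 1), the last added after seeing the data. The fits were tested on simulated data, with 10 of 75 analytes changed. A log2 change of 1 was recovered in 54.8% to 59.4% of cases for line, RT and IL-7. For the 3 interactions it was recovered in 1.6% to 3.4%, and 19.0% to 42.9% of calls were false. A log2 change of 2 was recovered in 45.4% to 55.2% for the interactions. Interactions of this size could thus be missed. The precision is limited by the number of arrays. The text names the 4 members, the 3 analytes most alike for each member tested, and members of 9 lists: other neutrophil attractants and growth factors, cytokines around IL-17A, products of IL-17A or IL-22, neutrophil granule products, monocyte factors, T and NK cell chemokines, endothelial adhesion molecules, platelet content, and plasma proteins. Members and lists were chosen with earlier results of these data known.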

Additional observations from a re-analysis of the deposited data

How the results depend on the processing

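The values for CXCL2 after RT in TC-1/IR, and for its loss with added IL-7, kept their direction under centring. The readings with buffer and after both treatments were below the floor after centring too. Both centred bounds thus set the same scaled reading after RT against the floor, and centring is no independent check of either. The direction held at every floor tried too, but that was fixed in advance. The reading of 7.91 lay above each floor, and those of 0.695 and 0.94 lay below each. The bounds, from 1.59-fold (floor of 2%) to 6.35-fold (floor of 0.5%), follow from the floor chosen. Counts of members in the other comparisons moved with the floor and with scaling. They are given below without the share of all analytes under each setting. They show only how far the counts depend on processing and are no result about the members. With a floor of 0.5% the count was 2 for line with buffer, after RT and after both treatments, and within TC-1/IR it was 2 for RT, 1 for IL-7 and 1 for the combination, each against buffer, and 3 for the combination against RT. With a floor per membrane it was 2 for line after RT and after both, and within TC-1/IR 2 for RT and 1 for the combination against buffer and 3 for the combination against RT. With a floor of 2% it was 0 for line with buffer, after IL-7 and after both, and in TC-1 0 for RT and IL-7 against buffer and 0 for the combination against IL-7. No member passed the limma filter at that floor. With the 2-fold threshold it was 0 for line with buffer, after RT and after both, and in TC-1 0 for RT against buffer, 0 for both against IL-7 alone and 1 for IL-7 against buffer. After centring it was 0 for line with buffer, and in TC-1 0 for RT against buffer, 0 for both against IL-7 alone and 1 for the combination against buffer (CXCL2, 1.60-fold higher). Centring kept the rank of 8 of 8 membranes for CXCL1, 4 for CXCL2, 2 for CXCL5 and 2 for IL-17A, in part among placeholders, which have no order.

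limma called 0 members for line and for RT by IL-7 with all membranes, and 0 to 1 with a membrane left out. The difference of CXCL2 then ran from -1.04 to -0.18 for line, from -2.09 to -0.19 for RT by IL-7, from -0.17 to 0.70 for RT and from -0.55 to 0.32 for IL-7. The lowest and highest for CXCL5 were -0.29 and 0.36 for RT, -0.25 and 0.28 for IL-7, and -0.59 and 1.10 for line by RT. The sign of CXCL5 for RT turned with centring (-0.14), a floor per membrane (-0.10), the first spot (-0.0038), the second (-0.17) and log2(intensity + 1) (-0.034). For IL-7 it turned with a floor of 0.5% (-0.35), a floor per membrane (-0.0034), the first spot (-0.037) and log2(intensity + 1) (-0.28). For line by RT it turned with centring (-0.30) and a floor per membrane (-0.12). None of these turned values was called, and the cause was not tested. No paired analysis was possible because no replicate numbers link membranes across groups, with 1 membrane per group. Matching the lines by treatment, as a block, left the differences at -0.54 for CXCL2 (SE 0.37, limma adjusted p = 0.278) and -0.47 for CXCL5 (SE 0.28, limma adjusted p = 0.218). All members were dim, and CXCL1 and IL-17A were measured mostly below the floor.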
